A study of Mus musculus with 30 samples.

Results

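The genes of sterol and fatty acid synthesis were followed in mouse microglia, the resident macrophages of the brain, obtained by 5 isolation protocols. The set holds 34 genes chosen by name for their place in the pathway, of 54532 genes in the count table, and every one of them was found there. They fall into role groups of 8 enzymes that build squalene from acetyl-CoA, 10 enzymes that turn squalene into cholesterol, 6 regulators and carriers, and 10 genes that make, elongate or desaturate fatty acids.

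All mice were C57/B6, and each of the 10 groups had 3 libraries, 30 in all. Cells received the inflammatory mediator HMGB1 (High Mobility Group Box 1, a nuclear protein released by stressed cells) for 4 h, or were left as Control. In Protocols 1B, 1C and 1A, microglia were shaken off mixed glial cultures made from 5 pooled pups aged P0 to P3. Protocol 1B had no GM-CSF and 10 days of culture, Protocol 1C had 0.5 ng/ml GM-CSF and 21 days, and Protocol 1A had 0.5 ng/ml GM-CSF and 10 days. Protocol 2 cells were adherent cells from 3 pooled brains of mice of 6 to 8 weeks, kept 7 days with 100 ng/ml each of GM-CSF and M-CSF. Protocol 3 cells were taken with anti-CD11b beads from mice of the same age and were treated at once. All cells were in serum-free medium during treatment, but cells of Protocols 1 and 2 had grown in serum and had been moved to serum-free medium the day before, whereas Protocol 3 cells had no culture in serum. Age, days in culture, growth factors and time without serum therefore cannot be told apart between Protocols 1, 2 and 3. Per the study, replicates were isolations from different litters for the neonatal protocols and from different mice for the adult ones. The paper also reports lower RNA yield and integrity for adult cells taken with beads than for the adherent adult cells. It proposes nucleases met during tissue digestion as a likely reason for the lower yield. The part of RNA quality in the comparisons with Protocol 3 was not tested.

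Cholesterol is built from acetyl-CoA through mevalonate, isoprenoid units, squalene and lanosterol. The transcription factors SREBF1 and SREBF2 switch on most of these genes, SREBF2 with a preference for the sterol branch and SREBF1 for fatty acids. SCAP carries them to the Golgi for activation when membrane sterol is low, and INSIG1 and INSIG2 hold SCAP back in the endoplasmic reticulum when sterol is plentiful. In the brain cholesterol is made locally, since plasma lipoproteins hardly cross the blood-brain barrier, and microglia take up and process sterol from myelin.

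Library totals ran from 14151983 to 28564757 counts. Tnf, an inflammatory cytokine used as a check of the labels, had 2881, 3006 and 2702 CPM in 1A HMGB1 libraries, against 19.2, 22.6 and 27.9 CPM in 1A Control libraries. In Protocol 3 it had 1866, 1899.6 and 1596 CPM with HMGB1, against 1154, 1324 and 1038 CPM in Control, so untreated Protocol 3 cells already carried much of it. CPM is the edgeR count scaled to a common library size, with TMM factors set over all 30 libraries. The 8 microglial markers summed to 950.2 to 1301 CPM in Protocol 1A, 1859 to 2834 CPM in 1B and 1C, 3534 to 3933 CPM in Protocol 2 and 2623 to 3096 CPM in Protocol 3. None of the 8 was at 0 in all 3 libraries of a group, but the homeostatic marker Tmem119 was near 0 in 1A Controls (1.45, 1.13 and 1.13 CPM) and its partner P2ry12 low (5.95, 9.01 and 11.2 CPM), against 43.0, 53.4 and 83.5 CPM for Tmem119 and 179, 194 and 194 CPM for P2ry12 in Protocol 3 Controls. The 6 neutrophil markers summed to 320.4 to 680.2 CPM in Protocol 3, and to 0.124 to 23.4 CPM elsewhere. The 5 fibroblast markers summed to 171 to 335 CPM in Protocol 2, and to 0.134 to 87.9 CPM elsewhere. In bulk libraries, fewer cells of a type and less RNA per cell cannot be told apart, and the part of these other cells in the results was not tested.

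Promoter sequences of the members were searched for known binding motifs. RefSeq start sites of the mouse build GRCm38.p6 gave 36 windows of 250 bases before to 50 bases after a start for 27 of the 34 members. The sterol regulatory element, to which SREBF proteins bind, was searched on both strands as its core CACNCCAC and as the stricter TCACCCCAC, which always holds the core. The CCAAT box, the site of the partner factor NF-Y, was searched the same way. Some windows of one gene overlap, as for Scap and Dhcr7. The core was found in 3 of the 36 windows (Acat2, Hmgcs1 and Insig1) and in 6.24% of all 32851 windows, so members held it at a share near that of all windows. The stricter form was found in 1 member window, that of Hmgcs1, and in 0.551% of all windows. CCAAT was found in 23 of the 36 windows, covering 22 of the 27 genes, and in 37.4% of all windows. The windows of 5 genes are printed because they show the range from dense to empty, and because Me1 moved against most other members. Capitals mark matches to CACNCCAC or CCAAT or their reverse complements.
Hmgcs1, chr13:119690101-119690400, plus strand: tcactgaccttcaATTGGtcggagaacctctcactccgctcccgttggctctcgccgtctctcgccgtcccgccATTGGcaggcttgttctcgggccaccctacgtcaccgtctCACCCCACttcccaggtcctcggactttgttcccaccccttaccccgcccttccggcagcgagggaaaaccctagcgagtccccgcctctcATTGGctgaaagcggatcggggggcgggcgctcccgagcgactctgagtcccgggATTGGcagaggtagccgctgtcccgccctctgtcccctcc
Mvk, chr5:114444019-114444318, plus strand: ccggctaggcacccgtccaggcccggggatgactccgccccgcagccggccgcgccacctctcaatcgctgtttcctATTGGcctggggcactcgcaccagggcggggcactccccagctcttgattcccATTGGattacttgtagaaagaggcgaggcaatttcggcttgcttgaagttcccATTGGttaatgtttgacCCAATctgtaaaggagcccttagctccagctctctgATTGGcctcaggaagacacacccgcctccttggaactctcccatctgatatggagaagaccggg
Hsd17b7, chr1:169969156-169969455, minus strand: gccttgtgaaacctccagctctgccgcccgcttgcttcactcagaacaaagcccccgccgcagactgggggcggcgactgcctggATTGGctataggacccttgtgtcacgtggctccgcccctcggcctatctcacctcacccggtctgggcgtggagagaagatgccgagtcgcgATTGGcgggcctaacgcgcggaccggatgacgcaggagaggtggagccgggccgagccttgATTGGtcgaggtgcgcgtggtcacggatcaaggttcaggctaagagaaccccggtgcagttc
Insig1, chr5:28071162-28071461, plus strand: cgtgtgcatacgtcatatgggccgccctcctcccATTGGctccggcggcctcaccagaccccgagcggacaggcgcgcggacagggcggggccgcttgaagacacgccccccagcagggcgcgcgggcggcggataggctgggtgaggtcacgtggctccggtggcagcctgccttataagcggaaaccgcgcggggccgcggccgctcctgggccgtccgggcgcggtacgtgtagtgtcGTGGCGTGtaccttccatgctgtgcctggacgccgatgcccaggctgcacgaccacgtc
Me1, chr9:86695865-86696164, minus strand: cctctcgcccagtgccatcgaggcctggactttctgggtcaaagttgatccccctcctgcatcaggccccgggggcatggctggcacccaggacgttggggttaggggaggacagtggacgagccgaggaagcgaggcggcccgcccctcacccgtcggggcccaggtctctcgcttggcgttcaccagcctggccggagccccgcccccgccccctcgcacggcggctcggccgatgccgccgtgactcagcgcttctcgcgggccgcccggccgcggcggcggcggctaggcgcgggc
The core stood at position -136 from the start site in Hmgcs1 and at -9 in Insig1. Mvk held 5 CCAAT matches, Hmgcs1 4 and Hsd17b7 3. The printed Me1 window held neither motif, while another Me1 start held 1 CCAAT match. A match is a stretch of letters only, and binding was not measured.

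In unstimulated cells, neonatal microglia carried far more sterol pathway mRNA than adult cells. The Protocol 1 Control groups (9 libraries) were compared with Protocol 3 and with Protocol 2 to ask how the isolation protocol sets the resting level. Of 34 members, 32 were higher and 1 was lower in Protocol 1 than in Protocol 3, in a comparison where 37.3% of all 17033 genes tested were higher and 42.9% were lower. Against Protocol 2, 30 members were higher and 2 were lower, beside 24.6% and 30.7% of all genes. The 2 lower ones were Insig2 and Scap, and leaving out any of 8 single libraries gave 1 or 3 in place of 2. The median log2 fold change of the members was 2.40 against Protocol 3 and 1.74 against Protocol 2, where the medians over all genes were -0.12 and -0.02. Groups did not overlap for 31 members in the first comparison and 29 in the second, and for 65.4% and 33.8% of all genes tested. All 18 enzymes of the sterol branch were higher in Protocol 1 in both comparisons. Microglial marker sums ran the other way, at 1128 to 2834 CPM in Protocol 1 Controls, against 2896 to 3023 CPM in Protocol 3 Controls and 3655 to 3933 CPM in Protocol 2 Controls. Of these 8 markers, 2 were higher and 5 were lower in Protocol 1 than in Protocol 3. Compared with Protocol 2, 1 was higher and 6 were lower in Protocol 1. The part of these markers in the result was not tested, nor was that of RNA quality.

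**Figure D1:**
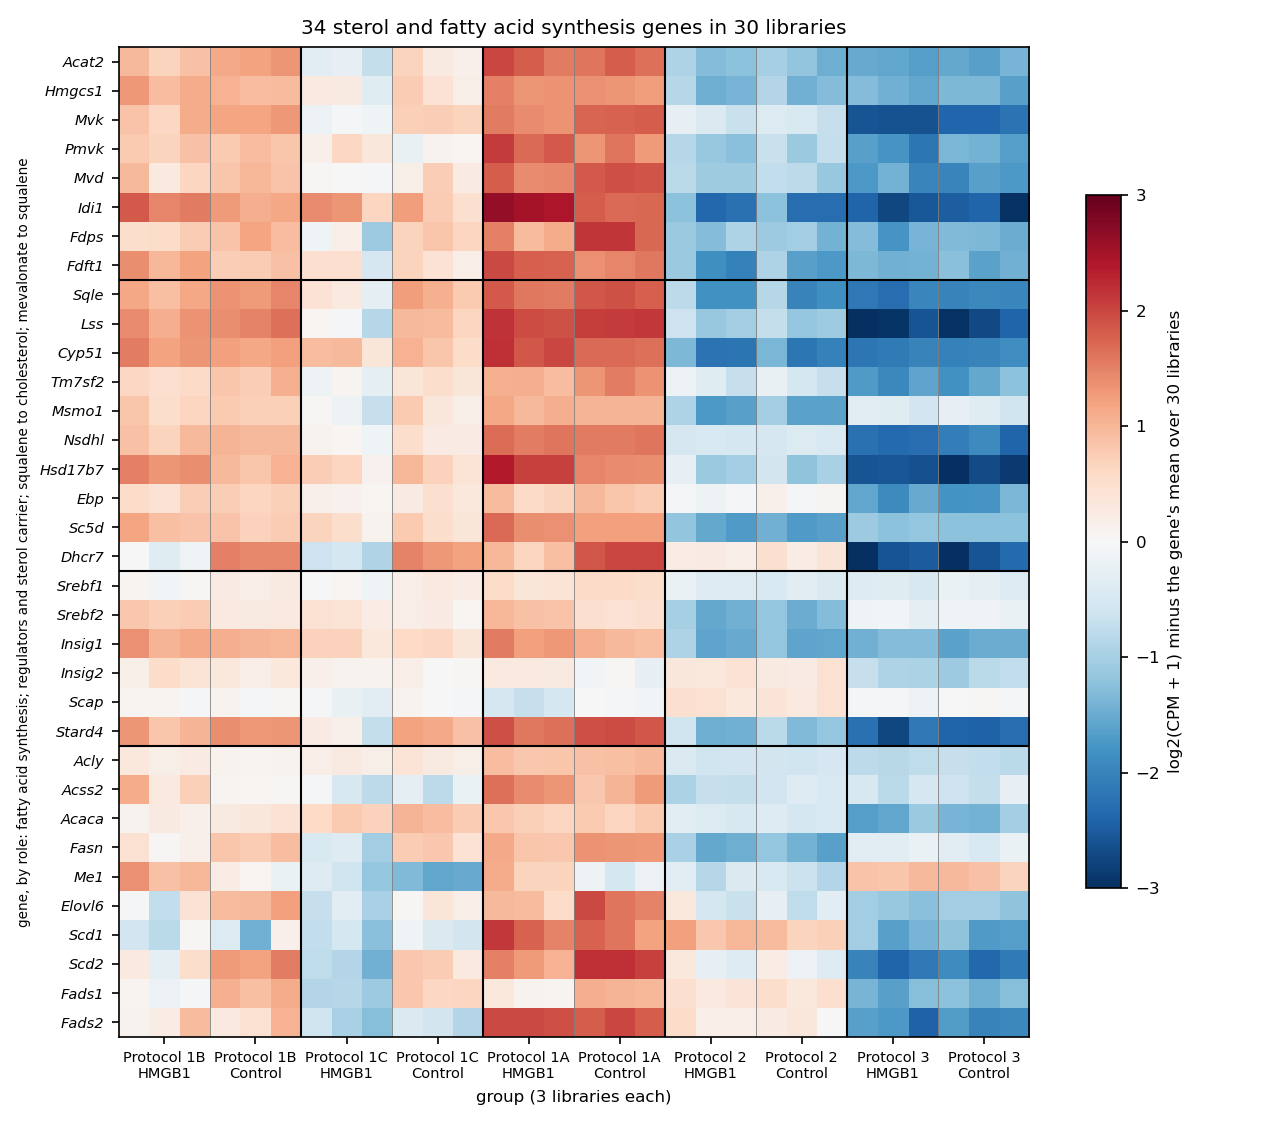
Level of the 34 members in all 30 libraries, as log2(CPM + 1) minus the mean of the gene over the libraries, with genes in rows by role and libraries in columns by group. Red stands for levels above the gene's mean and blue for levels below it, and the 18 libraries of Protocols 1B, 1C and 1A are redder than the 12 of Protocols 2 and 3 for most sterol genes.

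Among enzymes from acetyl-CoA to squalene, the isopentenyl isomerase Idi1 had 34.7, 59.8 and 88.8 CPM in Protocol 1 Controls, where the 3 values are here and in what follows the lowest, the median and the highest of 9 libraries. Protocol 2 Controls had 9.85, 4.29 and 4.22 CPM, and Protocol 3 Controls had 3.58, 3.87 and 2.30 CPM. No adult Control library came near the lowest neonatal one. Idi1 was thus higher in Protocol 1 than in Protocol 3 (log2 fold change 4.18 ± 0.33, adjusted p = 1.7e-07) and than in Protocol 2 (log2 fold change 3.33 ± 0.29, adjusted p = 1.7e-06). Values after ± are standard errors (SE), and adjusted p-values are from edgeR's quasi-likelihood test over all genes tested.

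Mevalonate kinase, Mvk, had 19.0, 28.0 and 43.8 CPM in Protocol 1 Controls, 8.58, 8.23 and 6.86 CPM in Protocol 2 Controls and 1.43, 1.45 and 1.74 CPM in Protocol 3 Controls. The 3 protocols stood on separate steps with no overlap. The step between Protocols 1 and 3 was 4.16 ± 0.12 on the log2 scale (adjusted p = 2.2e-17), and that between Protocols 2 and 3 was 2.26 ± 0.13 (adjusted p = 3.9e-12). Mvd, the mevalonate diphosphate decarboxylase, and Pmvk, phosphomevalonate kinase, also stood higher in Protocol 2 than in Protocol 3, at 19.9, 19.2 and 14.9 CPM in Protocol 2 against 7.78, 10.2 and 9.57 CPM in Protocol 3 for Mvd. The log2 fold change was 0.89 ± 0.15 with adjusted p = 4.9e-05 for Mvd and 0.70 ± 0.16 with adjusted p = 4.4e-04 for Pmvk, and neither gene's groups overlapped.

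Acat2, a thiolase at the entry of the pathway, had 18.5, 39.3 and 61.0 CPM in Protocol 1 Controls, and 7.80, 6.77 and 5.40 CPM in Protocol 2 Controls. The groups lay far apart (log2 fold change 2.48 ± 0.13, adjusted p = 1.4e-11). Fdps, which joins isoprenoid units, was low in all libraries, with 4.30 to 13.98 CPM in Protocol 1 Controls, 0.597, 0.651 and 0.276 CPM in Protocol 2 Controls and 0.358, 0.338 and 0.213 CPM in Protocol 3 Controls. Its log2 fold change was 4.46 ± 0.28 with adjusted p = 6.0e-12 between Protocols 1 and 3. The annotated gene Gm43738 overlaps it on the same strand over 7512 bases, so its level is uncertain. Hmgcs1, the synthase that starts the mevalonate route, and Fdft1, squalene synthase, were higher in Protocol 1 than in Protocol 3 by 2.34 ± 0.14 for Hmgcs1 and 2.38 ± 0.18 for Fdft1 on the log2 scale. Fdft1 overlaps the strongly counted Ctsb on the other strand over 774 bases, and whether the counting used strand is not given in the sources used here.

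Among enzymes from squalene to cholesterol, Dhcr7, the last step of one route to cholesterol, stood out for its span. Its Protocol 1 Controls had 51.6, 63.0 and 90.9 CPM, Protocol 2 Controls had 30.8, 25.6 and 28.96 CPM and Protocol 3 Controls had 1.74, 2.75 and 3.49 CPM. All 3 protocols were separated. The log2 fold change was 4.59 ± 0.14 with adjusted p = 2.5e-16 for Protocol 1 over Protocol 3 and 3.31 ± 0.15 with adjusted p = 1.6e-13 for Protocol 2 over Protocol 3.

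Hsd17b7, a sterol ketoreductase, had 25.5, 38.6 and 53.7 CPM in Protocol 1 Controls, 12.6, 7.62 and 9.14 CPM in Protocol 2 Controls and 1.48, 2.08 and 1.701 CPM in Protocol 3 Controls. It formed the same order without overlap, with 4.44 ± 0.19 with adjusted p = 4.3e-13 on the log2 scale for Protocol 1 over Protocol 3 and 2.39 ± 0.22 with adjusted p = 1.6e-08 for Protocol 2 over Protocol 3. Lanosterol synthase, Lss, had 49.5, 89.7 and 140.1 CPM in Protocol 1 Controls, 18.7, 13.5 and 14.5 CPM in Protocol 2 Controls and 3.12, 3.96 and 5.14 CPM in Protocol 3 Controls. Its log2 fold changes were 4.40 ± 0.16 with adjusted p = 3.5e-14 over Protocol 3 and 2.56 ± 0.13 with adjusted p = 6.8e-11 over Protocol 2.

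Squalene epoxidase, Sqle, had 88.8, 132 and 197 CPM in Protocol 1 Controls, against 28.0, 12.02 and 13.6 CPM in Protocol 2 Controls (log2 fold change 2.99 ± 0.25, adjusted p = 1.1e-06). Cyp51, the lanosterol demethylase, had 115, 184 and 257 CPM in Protocol 1 Controls and 29.8, 16.6 and 18.3 CPM in Protocol 2 Controls (log2 fold change 3.14 ± 0.18, adjusted p = 7.6e-09). In both genes the first Protocol 2 library was the highest of its group. Nsdhl, which acts in the removal of methyl groups from the sterol ring, had 10.7, 11.6 and 11.3 CPM in Protocol 2 Controls against 2.97, 3.48 and 2.17 CPM in Protocol 3 Controls (log2 fold change 1.89 ± 0.14, adjusted p = 9.3e-11). The other enzymes of this stretch were higher in Protocol 1 than in Protocol 3 by 2.36 for the sterol isomerase Ebp, 2.87 for the reductase Tm7sf2, 2.08 for the desaturase Sc5d and 1.09 for the oxygenase Msmo1 on the log2 scale.

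Protocol 2 was not a uniform midpoint between Protocols 1 and 3. Of 34 members, 18 were higher and 6 were lower in Protocol 2 than in Protocol 3, beside 40.1% and 37.2% of all genes tested, and groups did not overlap for 25 members and for 80.4% of all genes. The members' median was 0.74 on the log2 scale and that of all genes was 0.08. The 6 lower members were the sterol oxygenase Msmo1, the sterol desaturase Sc5d, the factors Srebf1 and Srebf2, fatty acid synthase Fasn and malic enzyme Me1. Msmo1 had 61.2, 40.1 and 40.1 CPM in Protocol 2 Controls, against 106, 96.3 and 81.3 CPM in Protocol 3 Controls (log2 fold change -1.08 ± 0.18, adjusted p = 9.0e-05). The call for Srebf1 (log2 fold change -0.18 ± 0.07, adjusted p = 0.029) was lost when either Protocol 2 replicate 1 or 3, or either Protocol 3 replicate 1 or 2, was left out.

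**Figure D2:**
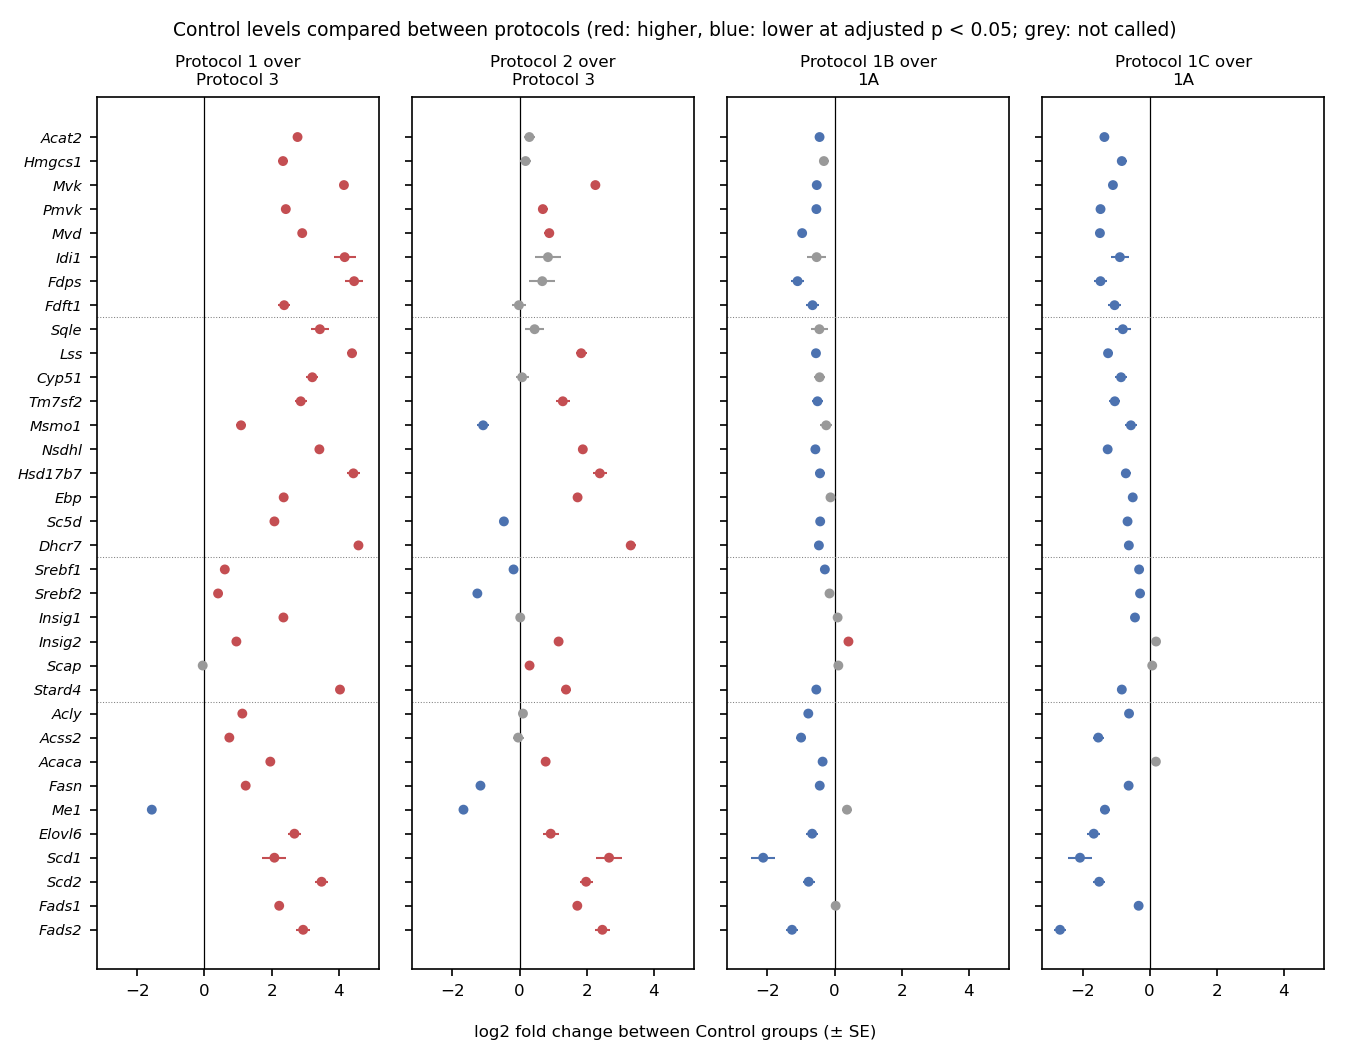
Log2 fold change between Control groups for each of the 34 members, with bars of 1 SE, for Protocol 1 over 3, Protocol 2 over 3, Protocol 1B over 1A and Protocol 1C over 1A. Points in the left panel lie to the right of 0 for 32 members called higher, whereas those of the right panel lie to the left of 0 for 31 members called lower.

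Among the regulators, Srebf2 mRNA had 222, 259 and 298 CPM in Protocol 1 Controls, 94.6, 74.9 and 85.4 CPM in Protocol 2 Controls and 193, 198 and 184 CPM in Protocol 3 Controls. Protocol 2 thus had the lowest Srebf2 of the 3, without overlap. The log2 fold change was 1.66 ± 0.07 with adjusted p = 5.0e-13 for Protocol 1 over 2, -1.26 ± 0.08 with adjusted p = 1.7e-11 for Protocol 2 over 3 and 0.41 ± 0.07 with adjusted p = 1.2e-05 for Protocol 1 over 3. Srebf1 had 82.5, 87.2 and 108 CPM in Protocol 1 Controls, 52.2, 57.7 and 52.7 CPM in Protocol 2 Controls and 62.0, 58.2 and 53.3 CPM in Protocol 3 Controls. It was higher in Protocol 1 than in Protocol 3 (0.61 ± 0.06, adjusted p = 1.1e-08). Per kilobase of annotated length, the median ratio of Srebf2 to Srebf1 was 2.17 in 1A Controls, 1.27 in Protocol 2 Controls and 2.66 in Protocol 3 Controls.

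The 2 INSIG genes differed in how they spread over protocols. Insig1, itself a target of SREBF proteins, had 153, 235 and 252 CPM in Protocol 1 Controls, 52.7, 38.6 and 39.4 CPM in Protocol 2 Controls and 38.4, 41.4 and 41.7 CPM in Protocol 3 Controls. Neonatal cells stood apart (log2 fold change 2.35 ± 0.10, adjusted p = 9.7e-15), and the Protocol 2 and 3 groups overlapped (log2 fold change 0.02 ± 0.10 with adjusted p = 0.86). Insig2 had 20.5, 25.0 and 30.6 CPM in Protocol 1 Controls, 29.4, 29.3 and 34 CPM in Protocol 2 Controls and 11.003, 13.6 and 14.3 CPM in Protocol 3 Controls. Here Protocol 2 sat with Protocol 1 and above Protocol 3 (log2 fold change 1.17 ± 0.11, adjusted p = 6.8e-09). Insig2 was called lower in Protocol 1 than in Protocol 2 (log2 fold change -0.21 ± 0.09, adjusted p = 0.04), but the groups overlapped. Per kilobase, the ratio of Insig1 to Insig2 ranged over 10.6 to 12.2 in 1A Controls, 1.30 to 2.01 in Protocol 2 Controls and 3.27 to 3.92 in Protocol 3 Controls.

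Scap moved little between protocols, with 43.1, 45.8 and 49.7 CPM in Protocol 1 Controls, 60.5, 56.6 and 63.2 CPM in Protocol 2 Controls and 45.5, 47.5 and 45.1 CPM in Protocol 3 Controls. It was lower in Protocol 1 than in Protocol 2 (log2 fold change -0.35 ± 0.06, adjusted p = 4.0e-05). Stard4, a carrier that moves sterol between membranes, behaved like the enzymes. It had 48.3, 66.2 and 103 CPM in Protocol 1 Controls, 14.4, 9.72 and 10.99 CPM in Protocol 2 Controls and 4.09, 4.01 and 4.55 CPM in Protocol 3 Controls. The log2 fold changes of Stard4 were 4.04 ± 0.13 with adjusted p = 1.1e-16 for Protocol 1 over 3 and 1.39 ± 0.14 with adjusted p = 1.6e-08 for Protocol 2 over 3.

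Among fatty acid genes, Scd2, a stearoyl-CoA desaturase that places a double bond in fatty acids, stood on a separate step in each protocol. It had 112, 221 and 422 CPM in Protocol 1 Controls, 107, 80.4 and 69.1 CPM in Protocol 2 Controls and 24.1, 16.9 and 20.3 CPM in Protocol 3 Controls. The steps did not overlap (log2 fold change 3.49 ± 0.19 with adjusted p = 8.0e-10 for Protocol 1 over 3 and 1.98 ± 0.19 with adjusted p = 6.3e-07 for Protocol 2 over 3). Its paralog Scd1 had 16.2, 13.0 and 13.6 CPM in Protocol 2 Controls and 2.81, 1.74 and 1.83 CPM in Protocol 3 Controls (log2 fold change 2.67 ± 0.40, adjusted p = 4.2e-05), and ranged over 2.27 to 28.995 CPM in Protocol 1 Controls. Scd1 was not called between Protocols 1 and 2 (log2 fold change -0.58 ± 0.27, adjusted p = 0.084), where Protocol 1 stands for the average over its variants. That average mixes opposite differences. All 1A Control libraries lay above the Protocol 2 Controls, and all 1B and 1C Control libraries lay below them. Reads shared by Scd paralogs could be split by the counting, so their levels carry that uncertainty.

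Fads2, the desaturase that starts the making of long polyunsaturated fatty acids, had 11.6, 12.3 and 9.42 CPM in Protocol 2 Controls and 2.30, 1.64 and 1.74 CPM in Protocol 3 Controls (log2 fold change 2.47 ± 0.22, adjusted p = 8.5e-09). In Protocol 1 it ranged over 4.75 to 41.2 CPM, with 2.94 on the log2 scale over Protocol 3 (adjusted p = 1.1e-10). Elovl6, an elongase, was low, with 4.05 to 18.5 CPM in Protocol 1 Controls, 3.13, 1.91 and 2.88 CPM in Protocol 2 Controls and 1.38, 1.40 and 1.15 CPM in Protocol 3 Controls. The groups stood apart in the order of Protocol 1, 2 and 3, by 2.68 ± 0.20 with adjusted p = 1.4e-10 between the first and the last.

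Fasn, which builds palmitate, had 173, 230.0 and 325 CPM in Protocol 1 Controls, 56.9, 47.0 and 40.4 CPM in Protocol 2 Controls and 102, 92.9 and 111 CPM in Protocol 3 Controls. Protocol 3 lay between the others, and each pair was separated (log2 fold change 2.39 ± 0.11 with adjusted p = 4.4e-12 for Protocol 1 over 2 and -1.16 ± 0.12 with adjusted p = 4.1e-08 for Protocol 2 over 3). Me1, which makes NADPH for fatty acid synthesis, had 4.59 to 18.2 CPM in Protocol 1 Controls, 11.04, 9.64 and 7.998 CPM in Protocol 2 Controls and 31.6, 29.4 and 25.3 CPM in Protocol 3 Controls. It was the only member called lower in Protocol 1 than in Protocol 3 (log2 fold change -1.57 ± 0.11 with adjusted p = 5.9e-11). Acly and Acss2, which supply acetyl-CoA, and Acaca, which makes malonyl-CoA, were higher in Protocol 1 than in Protocol 3 by 1.13, 0.74 and 1.96 on the log2 scale.

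**Figure D3:**
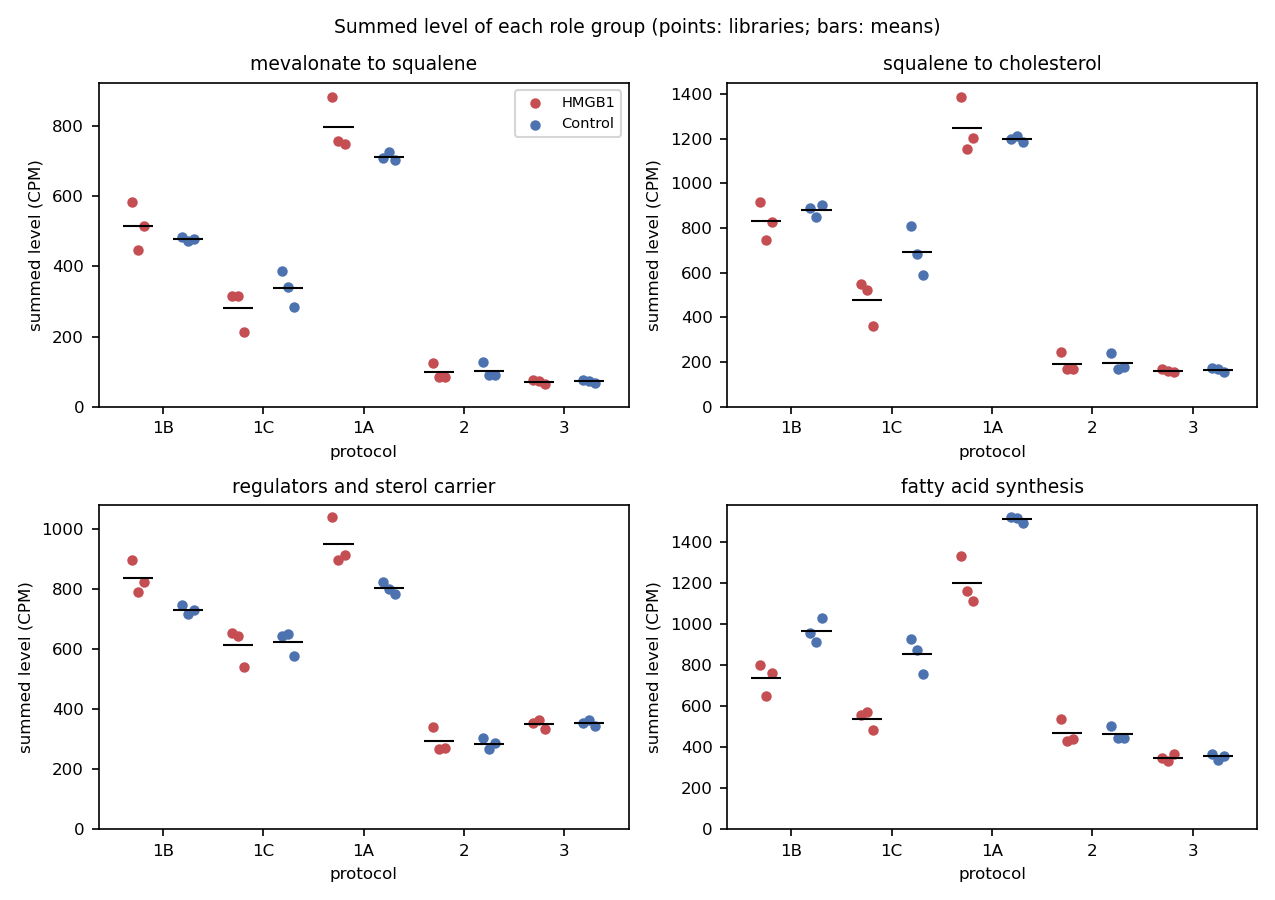
Summed level in CPM of the genes of each role group, in every library, by protocol, with HMGB1 left of Control in each pair and a bar at the mean. The mevalonate genes sum to 708, 725 and 702 CPM in the 3 1A Control libraries and to 75.3, 74.5 and 66.8 CPM in the 3 Protocol 3 Control libraries.

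Within Protocol 2, replicate 1 had the highest summed level of the 10 squalene to cholesterol genes under both treatments, though not of each gene. The 10 squalene to cholesterol genes summed to 244, 168 and 169 CPM over replicates 1, 2 and 3 of Protocol 2 HMGB1, against 239.7, 167 and 179 CPM of Protocol 2 Control. The range between replicates was wider than the difference between the group means. The same replicate had the most oligodendrocyte marker RNA (112, 59.2 and 50.1 CPM over replicates 1 to 3 with HMGB1, against 104, 60.04 and 45.8 CPM in Control, 7 markers). It also had the most fibroblast marker RNA (335, 203 and 189 CPM with HMGB1, against 255, 193 and 171 CPM in Control). Their part in the result was not tested. In Protocol 1C replicate 3 was the lowest, at 551, 521 and 363 CPM over replicates 1, 2 and 3 with HMGB1, against 808, 684 and 589.9 CPM in Control.

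The neonatal variants also differed among themselves at rest, with 1A highest. Of 34 members, 1 was higher and 22 were lower in 1B than in 1A, beside 18.2% and 12.6% of all genes tested. None was higher and 31 were lower in 1C than in 1A, beside 13.1% and 7.91%. For the count of 0, no member passed at an unadjusted p under 0.05 in edgeR either, and DESeq2 also gave 0. Groups did not overlap for 30 members between 1B and 1A and for 31 between 1C and 1A, beside 45.2% and 34.4% of all genes tested. The median of the members was -0.46 on the log2 scale in 1B and -0.84 in 1C, where the medians of all genes were 0.04 and 0.04. The 1 higher member in 1B was Insig2 (log2 fold change 0.41 ± 0.11, adjusted p = 0.0056), and without 1B Control replicate 3 the count was 2.

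The largest differences were in desaturases. Fads2 had 11.9, 13.5 and 20.7 CPM in 1B Controls, 6.77, 6.20 and 4.75 CPM in 1C Controls and 36.4, 41.2 and 36.0 CPM in 1A Controls. The 3 variants did not overlap (log2 fold change -2.67 ± 0.19 with adjusted p = 2.7e-08 for 1C over 1A and -1.27 ± 0.18 with adjusted p = 2.4e-05 for 1B over 1A). Scd1 had 5.70, 2.27 and 8.89 CPM in 1B Controls, 7.09, 5.53 and 5.00 CPM in 1C Controls and 28.995, 26.1 and 19.4 CPM in 1A Controls. Here 1B and 1C overlapped and both lay below 1A (-2.13 and -2.07 on the log2 scale, adjusted p = 5.7e-04 and 0.0011). Scap, Insig2 and Acaca were the 3 members not called lower in 1C than in 1A. The microglial marker sum was lowest in 1A and fibroblast markers were nearly absent there (25.8 to 85.7 CPM in 1B Controls and 40.7 to 87.9 CPM in 1C Controls, against 0.996 to 2.54 CPM in 1A Controls). All 7 oligodendrocyte markers were higher in 1C than in 1A Controls, with sums of 28.3 to 76.8 CPM in 1C, against 5.58 to 6.92 CPM in 1A, and 4 of 6 astrocyte markers were higher and 1 was lower. In 1B, 4 of the 7 oligodendrocyte markers were higher and 1 was lower (10.3 to 21.03 CPM), and of the 6 astrocyte markers 5 were higher and 1 was lower. The astrocyte sums nevertheless overlapped, at 21.2 to 46.4 CPM in 1B Controls, 30.8 to 34.8 CPM in 1C Controls and 28.0 to 39.0 CPM in 1A Controls. The part of these markers in the differences was not tested.

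The response to HMGB1 went both ways in neonatal cells. In Protocol 1A, 11 members rose and 12 fell, beside 29.7% and 31.6% of all 13489 genes tested, so the shares were close to those of all genes. In Protocol 1B, 7 rose and 11 fell, beside 29.8% and 32% of genes, a smaller share rising and a like share falling. In Protocol 1C, 2 rose and 16 fell, beside 28.4% and 31.8%. With the replicate number as a block, 4 rose, beside 4307 of all 14328 genes. That fit compares each HMGB1 library with the Control of the same number. The share of members that fell in 1C was above that of all genes and the share that rose was below it. Without 1C HMGB1 replicate 2 or 1C Control replicate 1 or 3, the count of 2 was 1. In 1A, groups did not overlap for 21 members, beside 66.9% of all genes tested, in 1B for 20 beside 68.2%, and in 1C for 19 beside 66.9%. The 6 endothelial markers, of which Cldn5 and Emcn were at 0, summed to 200.3, 222 and 300.3 CPM in 1C HMGB1 libraries, against 53.2, 43.0 and 58.1 CPM in 1C Control libraries, and microglial markers to 1998, 2128 and 2833 CPM in 1C HMGB1 libraries, against 2157, 2073 and 2834 CPM in 1C Control libraries. Endothelial marker sums were also higher with HMGB1 in 1A (68.0 to 108 CPM, against 28.3 to 48.7 CPM in Control) and in 1B (39.8 to 69.4 CPM, against 14.5 to 15.7 CPM in Control). Emcn was at 0 in 1A HMGB1 libraries and Cldn5 in 1B HMGB1 libraries, and both were at 0 in the Controls of 1A and 1B. Of the 6 endothelial markers, 2 were tested in 1A and 3 in 1B, and 2 were called higher in each. The 6 astrocyte markers summed to 48.4 to 56.1 CPM in 1A HMGB1 libraries, against 28.0 to 39.0 CPM in 1A Control libraries, to 42.1 to 82.5 CPM in 1B HMGB1 libraries, against 21.2 to 46.4 CPM in 1B Control libraries, and to 43.3 to 56.1 CPM in 1C HMGB1 libraries, against 30.8 to 34.8 CPM in 1C Control libraries. The 6 neutrophil markers summed to 14.3 to 23.4 CPM in 1A HMGB1 libraries, against 4.50 to 5.24 CPM in 1A Control libraries. In 1C they summed to 6.93 to 11.8 CPM in HMGB1 libraries, against 2.44 to 4.85 CPM in Control libraries. Of them, Ngp, Ly6g and Retnlg were at 0 in 1A HMGB1 libraries, and S100a9, Ly6g and Retnlg were at 0 in 1C HMGB1 libraries. Only 2 of the 6 were tested in 1A and 1 in 1C, and each of these was called higher. Microglial markers summed to 950.2 to 1097 CPM in 1A HMGB1 libraries, against 1128 to 1301 CPM in 1A Control libraries, and to 1859 to 2045 CPM in 1B HMGB1 libraries, against 2187 to 2606 CPM in 1B Control libraries. The part of these markers in the responses was not tested. The median of the members was -0.02 in 1A, -0.13 in 1B and -0.36 in 1C on the log2 scale, and the medians of all genes lay at -0.04, -0.02 and -0.04.

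In all 3 neonatal variants, 9 members fell: Mvk, Sqle, Tm7sf2, Dhcr7, Stard4, Fasn, Elovl6, Scd2 and Fads1. Me1 was the 1 member that rose in all 3. Of the 12719 genes tested in all 3, 24% fell and 22% rose in each. The share of members that fell was close to that of all genes, and the share that rose was below it. Without the replicate block, no member rose in one variant and fell in another. Hmgcs1, Ebp, Acaca, Scd1 and Fads2 were called in none of them. With the replicate block, Scd1 was called lower in 1C (adjusted p = 0.042), and Hmgcs1 higher in 1B (adjusted p = 0.043) and lower in 1C (adjusted p = 0.0018). Scd1 also passed with the block as higher in 1A (log2 fold change 0.25, adjusted p = 0.022), where pairing by number is uncertain. Lss (adjusted p = 0.032) and Sc5d (adjusted p = 0.012) then also passed in 1B.

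**Figure D4:**
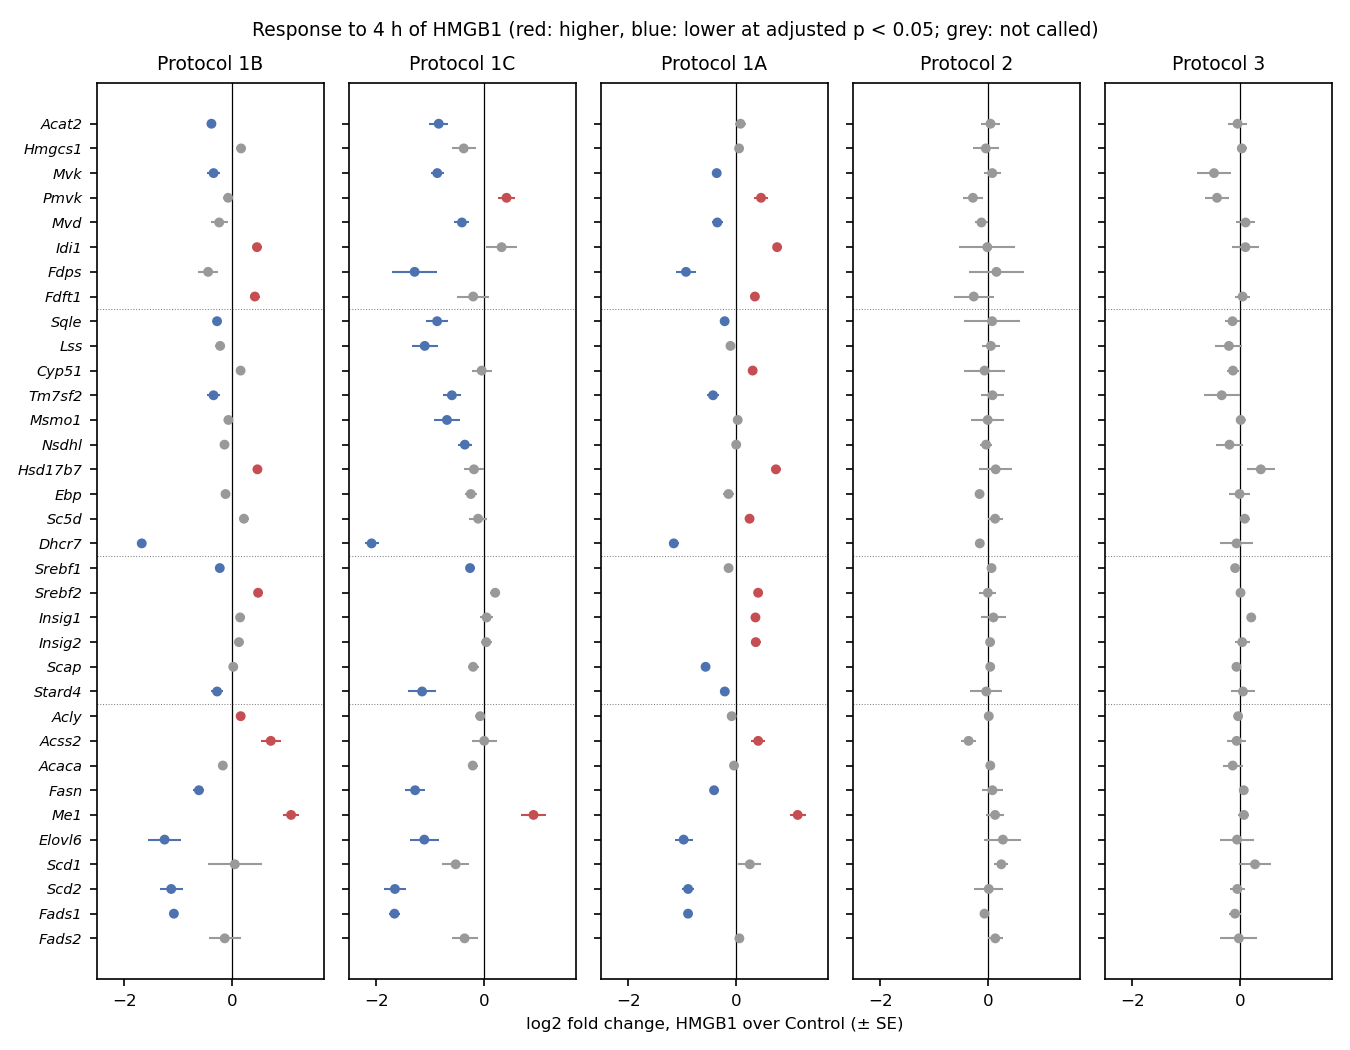
Log2 fold change of HMGB1 over Control in each protocol for the 34 members, with bars of 1 SE, coloured red where called higher, blue where called lower and grey where not called. Coloured points appear in the 3 neonatal panels only, 18 in 1B, 18 in 1C and 23 in 1A, and Fdps has no point in Protocol 3.

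Dhcr7 had the largest fall in each variant. It had 44.5, 34.5 and 41.3 CPM in 1A HMGB1 libraries, against 82.3, 89.8 and 90.9 CPM in 1A Control libraries. In 1B it had 21.4, 16.8 and 19.8 CPM with HMGB1, against 63.4, 61.2 and 60.9 CPM in Control, and in 1C it had 13.8, 14.9 and 11.1 CPM with HMGB1, against 63.0, 54.9 and 51.6 CPM in Control. No groups overlapped, and the log2 fold changes were -1.16 ± 0.09 with adjusted p = 1.3e-07 in 1A, -1.67 ± 0.09 with adjusted p = 4.8e-08 in 1B and -2.08 ± 0.13 with adjusted p = 7.3e-08 in 1C. In Protocol 2 it had 25.7, 26.1 and 25.1 CPM with HMGB1, against 30.8, 25.6 and 28.96 CPM in Control, and was not called (adjusted p = 0.66).

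In the same stretch of the pathway Hsd17b7 went the other way in 1A and 1B. It had 102, 81.5 and 81.9 CPM in 1A HMGB1 libraries, against 53.7, 52.1 and 50.8 CPM in 1A Control libraries (log2 fold change 0.74 ± 0.09, adjusted p = 8.4e-06). In 1B it had 55.7, 48.9 and 51.2 CPM with HMGB1, against 38.2, 34.5 and 40.2 CPM in Control (log2 fold change 0.47 ± 0.08, adjusted p = 3.5e-04). Both pairs were separated, whereas in 1C the groups overlapped (-0.19 ± 0.19, adjusted p = 0.43). Tm7sf2, a sterol reductase, had 15.7, 15.9 and 14.1 CPM in 1A HMGB1 libraries, against 18.9, 22.1 and 19.5 CPM in 1A Control libraries. It fell without overlap (log2 fold change -0.43 ± 0.11, adjusted p = 0.0031), and the gene shares 9356 bases with Vps51 on the same strand. Lss, Msmo1 and Nsdhl were called lower in 1C and not in 1A or 1B, by -1.10 ± 0.24 with adjusted p = 0.0062 for Lss, -0.69 ± 0.23 with adjusted p = 0.039 for Msmo1 and -0.36 ± 0.13 with adjusted p = 0.034 for Nsdhl on the log2 scale. The Msmo1 call was lost without 1C HMGB1 replicate 2 or 1C Control replicate 1, and the Nsdhl call without either of these or 1C HMGB1 replicate 3. Sqle was lower with HMGB1 in each variant (-0.21, -0.28 and -0.87 on the log2 scale for 1A, 1B and 1C), and its 1A call was lost without 1A HMGB1 replicate 2 or 3 or 1A Control replicate 1 or 2. Cyp51 and Sc5d were called higher in 1A, by 0.31 and 0.25, and the Sc5d call was lost without 1A HMGB1 replicate 1 or 1A Control replicate 2.

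Among the enzymes from acetyl-CoA to squalene, Idi1 rose most in 1A and 1B. It had 159, 143 and 137 CPM in 1A HMGB1 libraries, against 88.8, 82.4 and 83.9 CPM in 1A Control libraries. In 1B it had 91.5, 70.2 and 74.3 CPM with HMGB1, against 61.4, 53.9 and 56.5 CPM in Control. Neither pair overlapped (log2 fold change 0.76 ± 0.07 with adjusted p = 4.9e-07 in 1A and 0.46 ± 0.10 with adjusted p = 0.0018 in 1B). In 1C it had 67.5, 63.5 and 39.1 CPM with HMGB1, against 59.8, 42.3 and 34.7 CPM in Control, which overlapped (adjusted p = 0.37), but with the replicate block the 1C call passed at adjusted p = 0.012. Pmvk was the gene of this stretch called higher in 1C without the block (log2 fold change 0.42 ± 0.15, adjusted p = 0.033), a call lost without 1C HMGB1 replicate 2 or 3 or 1C Control replicate 1 or 3.

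Pmvk had 63.4, 47.5 and 52.9 CPM in 1A HMGB1 libraries, against 36.7, 44.7 and 35.5 CPM in 1A Control libraries (log2 fold change 0.46 ± 0.13, adjusted p = 0.011). Its neighbour step Mvk moved down, with 36.1, 33.0 and 31.5 CPM in 1A HMGB1 libraries, against 41.3, 41.9 and 43.8 CPM in 1A Control libraries (log2 fold change -0.36 ± 0.08, adjusted p = 0.0011). Fdps had 8.62, 5.497 and 6.29 CPM in 1A HMGB1 libraries, against 13.98, 13.9 and 10.2 CPM in 1A Control libraries (log2 fold change -0.93 ± 0.19, adjusted p = 9.1e-04). The mevalonate genes thus split, with Idi1, Pmvk and Fdft1 higher and Mvk, Mvd and Fdps lower in 1A, none of these pairs overlapping. The Mvd call was lost without 1A HMGB1 replicate 3, and the Mvk call in 1B (-0.34) without 1B HMGB1 replicate 2 or 1B Control replicate 2 or 3. Acat2 was called lower in 1B (-0.38 ± 0.09) and 1C (-0.84 ± 0.18) and not in 1A (0.08 ± 0.11). The summed level of the 8 genes was 882, 757 and 749 CPM in 1A HMGB1 libraries, against 708, 725 and 702 CPM in 1A Control libraries.

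**Figure D5:**
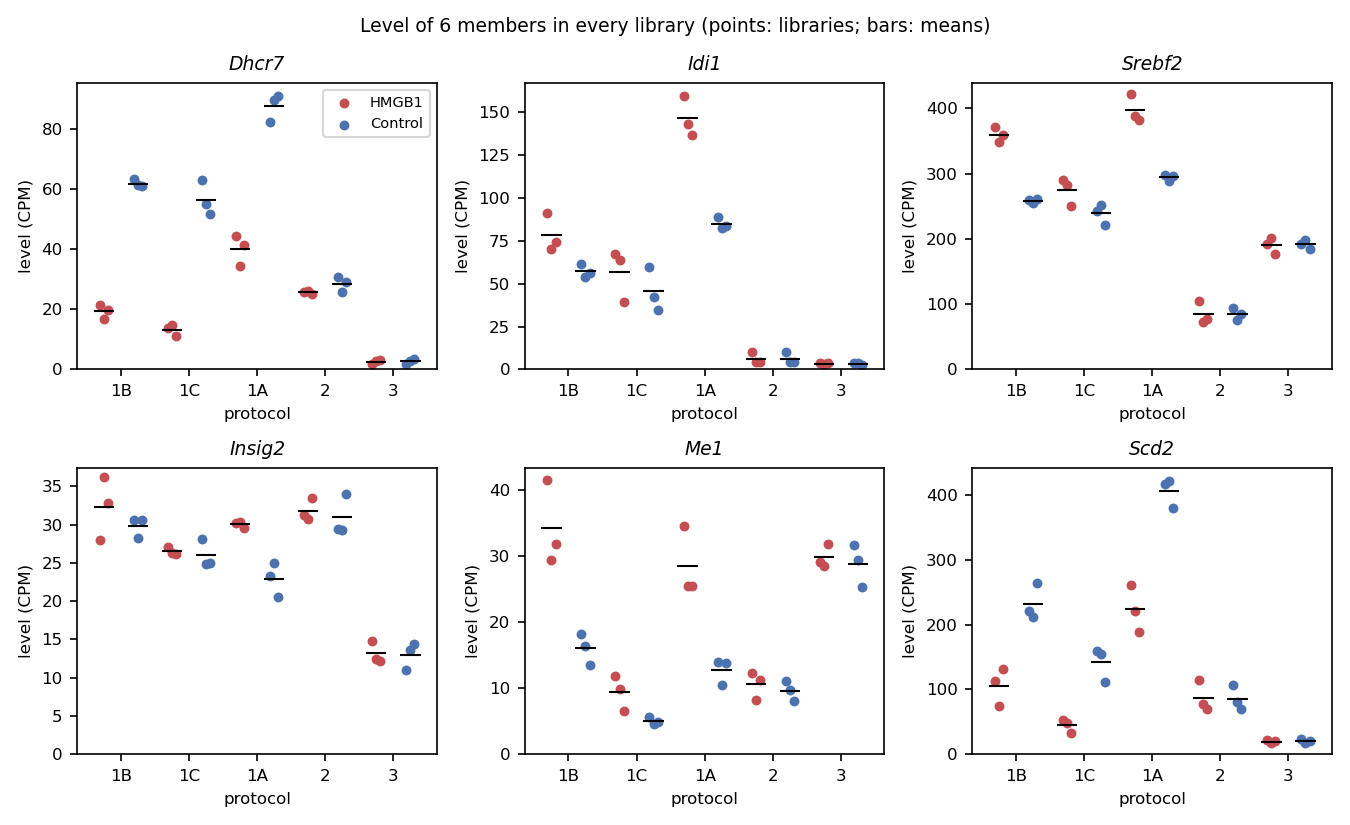
Level in CPM of Dhcr7, Idi1, Srebf2, Insig2, Me1 and Scd2 in every library, by protocol, with HMGB1 left of Control in each pair and a bar at the mean of 3 libraries. HMGB1 points lie below Control points for Dhcr7 and Scd2 in the 3 neonatal protocols and above them for Me1, while the pairs of Protocols 2 and 3 overlap for all 6 genes.

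Srebf2, the sterol-branch factor, rose while most of the called fatty acid genes fell. It had 421, 388 and 382 CPM in 1A HMGB1 libraries, against 298, 289 and 296 CPM in 1A Control libraries (log2 fold change 0.41 ± 0.06, adjusted p = 8.7e-05). In 1B it had 372, 348 and 359 CPM with HMGB1, against 259, 255 and 262 CPM in Control (log2 fold change 0.48 ± 0.06, adjusted p = 2.6e-05). In 1C the groups overlapped (0.21 ± 0.10, adjusted p = 0.086), and the gene passed with the replicate block (adjusted p = 0.036). Srebf1 had 75.9, 67.3 and 73.1 CPM in 1B HMGB1 libraries, against 84.6, 82.5 and 87.2 CPM in 1B Control libraries. It fell in 1B (-0.23 ± 0.06, adjusted p = 0.01) and 1C (-0.26 ± 0.08, adjusted p = 0.018), and was not called in 1A (-0.14 ± 0.07, adjusted p = 0.089), and the 1C call was lost without 1C HMGB1 replicate 3 or 1C Control replicate 2. The median ratio of Srebf2 to Srebf1 per kilobase was 3.15 in 1A HMGB1 libraries, against 2.17 in 1A Control libraries, and 3.85 in 1B HMGB1 libraries, against 2.41 in 1B Control libraries.

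The regulators Scap, Insig1 and Insig2 were called in 1A and in no other protocol. Scap had 32.3, 28.0 and 31.7 CPM in 1A HMGB1 libraries, against 46.5, 44.1 and 43.1 CPM in 1A Control libraries (log2 fold change -0.57 ± 0.08, adjusted p = 4.2e-05). Its partners Insig1 and Insig2 rose there, Insig2 with 30.2, 30.3 and 29.5 CPM in 1A HMGB1 libraries, against 23.2, 25.0 and 20.5 CPM in 1A Control libraries (log2 fold change 0.36 ± 0.09, adjusted p = 0.0044), and Insig1 with 351, 277 and 292 CPM in 1A HMGB1 libraries, against 248, 235 and 222 CPM in 1A Control libraries (log2 fold change 0.36 ± 0.09, adjusted p = 0.0036). No groups overlapped for these 3 genes. The test of the difference between variants passed without the block for Scap alone among them, with a response higher in 1B than in 1A by 0.56 ± 0.11 with adjusted p = 0.0013, and in 1C than in 1A by 0.33 ± 0.11 with adjusted p = 0.046. The difference between 1C and 1A for Scap held without 3 of 12 single libraries and was lost without each of the other 9. With the replicate block, Scap also passed as a fall in 1C (adjusted p = 0.045), and the response of Insig1 was lower in 1C than in 1A (log2 difference -0.34, adjusted p = 0.0051). Stard4 fell in 1C (log2 fold change -1.15 ± 0.25, adjusted p = 0.0064), while its 1A call (-0.21 on the log2 scale) was lost without 1A HMGB1 replicate 2 or 3 or 1A Control replicate 1 or 2.

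Fatty acid genes held the steepest falls apart from Dhcr7. Fads1, a desaturase of polyunsaturated fatty acids, had 77.8, 67.5 and 66.1 CPM in 1A HMGB1 libraries, against 133, 127 and 125 CPM in 1A Control libraries. In 1C it had 33.3, 33.7 and 28.6 CPM with HMGB1, against 109, 97.1 and 97.6 CPM in Control. The groups were far apart, at -0.89 ± 0.07 with adjusted p = 1.4e-07 on the log2 scale in 1A, -1.08 ± 0.08 with adjusted p = 5.8e-07 in 1B and -1.66 ± 0.10 with adjusted p = 5.0e-08 in 1C. Its neighbour on chromosome 19, Fads2, was not called in any variant (0.06, -0.14 and -0.36 in 1A, 1B and 1C).

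Scd2 had 262, 221 and 189 CPM in 1A HMGB1 libraries, against 418, 422 and 381 CPM in 1A Control libraries. In 1C it had 53.1, 48.8 and 32.9 CPM with HMGB1, against 159, 155 and 112 CPM in Control. It fell without overlap (log2 fold change -0.89 ± 0.11 with adjusted p = 5.1e-05 in 1A, -1.13 ± 0.21 with adjusted p = 0.0043 in 1B and -1.65 ± 0.21 with adjusted p = 3.2e-04 in 1C). Scd1 had 37.4, 29.3 and 23.9 CPM in 1A HMGB1 libraries, against 28.995, 26.1 and 19.4 CPM in 1A Control libraries, which overlapped. The median per-kilobase ratio of Scd2 to Scd1 was 6.67 in 1A HMGB1 libraries and 14.3 in 1A Control libraries.

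Elovl6 had 8.73, 8.46 and 6.23 CPM in 1A HMGB1 libraries, against 18.5, 13.99 and 12.8 CPM in 1A Control libraries (log2 fold change -0.97 ± 0.17, adjusted p = 2.5e-04). Fasn had 281, 229 and 226 CPM in 1A HMGB1 libraries, against 325, 319.7 and 315 CPM in 1A Control libraries (log2 fold change -0.41 ± 0.08, adjusted p = 7.6e-04). Both genes fell in 1B and 1C as well, with a log2 fold change of -1.28 for Fasn in 1C. Acly rose in 1B by 0.16 on the log2 scale (adjusted p = 0.034), a call lost without 5 of the 6 libraries in turn, all except 1B HMGB1 replicate 2. Me1 had 34.5, 25.5 and 25.4 CPM in 1A HMGB1 libraries, against 13.9, 10.4 and 13.7 CPM in 1A Control libraries. In 1B it had 41.5, 29.3 and 31.8 CPM with HMGB1, against 18.2, 16.3 and 13.5 CPM in Control, and in 1C it had 11.8, 9.85 and 6.46 CPM with HMGB1, against 5.60, 4.59 and 4.83 CPM in Control. Every HMGB1 library exceeded every Control library of its variant (log2 fold change 1.14 ± 0.15 with adjusted p = 3.3e-05 in 1A, 1.09 ± 0.15 with adjusted p = 1.5e-04 in 1B and 0.92 ± 0.22 with adjusted p = 0.0039 in 1C). Acss2 rose in 1A (log2 fold change 0.41 ± 0.13, adjusted p = 0.017) and 1B (log2 fold change 0.72 ± 0.19, adjusted p = 0.0089), with the 1A call lost without 1A HMGB1 replicate 1 or 1A Control replicate 2 and with the replicate block (adjusted p = 0.064). Acss2 shares 22544 bases with Gss on the opposite strand.

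In adult cells no member passed. In Protocol 2, 0 of 34 members rose and 0 fell, beside 1.21% and 0.283% of genes tested, and DESeq2 gave 0 as well. At an unadjusted p under 0.05, 0 were higher and 1 was lower in edgeR, namely Acss2 with 6.53, 8.02 and 7.88 CPM in Protocol 2 HMGB1 libraries, against 8.81, 10.2 and 9.73 CPM in Protocol 2 Control libraries (adjusted p = 0.36). In Protocol 3, 0 of the 33 members tested rose and 0 fell, beside 0.123% and 0%, and DESeq2 gave 0. Fdps was too low there to be tested, and at an unadjusted p under 0.05, 1 was higher and 0 were lower. The higher one was Insig1, with 43.1, 47.8 and 47.6 CPM in Protocol 3 HMGB1 libraries, against 38.4, 41.4 and 41.7 CPM in Protocol 3 Control libraries (adjusted p = 0.91). Groups did not overlap for 1 member in Protocol 2, Acss2, and for 4 in Protocol 3, namely Mvk, Hsd17b7, Insig1 and Scap, beside 14.1% of all genes tested in Protocol 2 and 11.3% in Protocol 3. With the replicate number as a block, the counts of members higher and lower stayed at 0 in Protocols 2 and 3. Over all genes, the block gave 721 higher and 515 lower of 15564 in Protocol 2. In Protocol 3 it gave 262 higher and 72 lower of 15401. A p that misses the threshold does not show that levels were equal. Without the block, the log2 fold changes of the members ran from -0.36 to 0.27 in Protocol 2 and from -0.49 to 0.38 in Protocol 3.

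The difference between responses was tested directly. Against Protocol 1, the response in Protocol 2 was higher for 9 members and lower for 4, beside 22.9% and 20.6% of all 18182 genes tested. With the replicate block these counts were 14 and 6, beside 4535 and 4039 of the 18182 genes. Without the block, the count of 4 was 7 without Protocol 2 HMGB1 replicate 1 and 2 without Protocol 2 HMGB1 replicate 2 or Protocol 2 Control replicate 1. The response in Protocol 3 was higher for 4 members and lower for 3, beside 20.2% and 22.5%. With the block it was higher for 8 and lower for 5, beside 3865 and 4399 of all genes. The differences share the Protocol 1 libraries. Between neonatal variants, 1B differed from 1A for 1 member higher and 0 lower, beside 3.7% and 3.21%. With the block it differed for 1 higher and 3 lower, beside 1054 and 978 of all genes. The count of 0 lower stands beside 3 members lower at an unadjusted p under 0.05 in edgeR and 1 called by DESeq2, and it was 1 without 1A HMGB1 replicate 2 or 1B HMGB1 replicate 1. The response in 1C was higher than in 1A for 1 member and lower for 8, beside 5.46% and 8.53%. With the block the count of lower members was 20, beside 2110 of all genes. Without 1A HMGB1 replicate 1 the count of 8 was 5.

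Dhcr7 had the largest called difference in both adult protocols. The response of Dhcr7 was -0.16 in Protocol 2 and -0.07 in Protocol 3, against -1.67, -2.08 and -1.16 in 1B, 1C and 1A. The difference to the mean of Protocol 1 was 1.48 ± 0.15 with adjusted p = 9.5e-10 in Protocol 2 and 1.52 ± 0.23 with adjusted p = 1.7e-06 in Protocol 3. For Fads1 it was 1.14 ± 0.10 with adjusted p = 5.5e-11 in Protocol 2 and 1.09 ± 0.11 with adjusted p = 6.3e-10 in Protocol 3. Scd2 and Fasn showed the same sign, at 1.24 ± 0.27 and 0.85 ± 0.19 in Protocol 2, though the Fasn call was lost with 1A alone as Protocol 1. Me1 and Srebf2 had the opposite sign, at -0.92 ± 0.22 with adjusted p = 8.9e-04 and -0.37 ± 0.11 with adjusted p = 0.0072 in Protocol 2, where the Srebf2 call was lost without Protocol 2 HMGB1 replicate 2 or Protocol 2 Control replicate 1. In 1C against 1A, the 8 lower responses were those of Acat2, Mvk, Lss, Hsd17b7, Dhcr7, Stard4, Fasn and Fads1, with -0.96 ± 0.18 with adjusted p = 4.7e-04 for Dhcr7, -1.03 ± 0.26 with adjusted p = 0.01 for Lss and -0.80 ± 0.13 with adjusted p = 4.5e-05 for Fads1.

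Genes beside the pathway were taken from 4 lists, and the shares of all genes given above for each protocol apply to them. Of 11 genes that regulate or process SREBF proteins, 5 rose and 1 fell in 1A, 5 rose and 2 fell in 1B and 3 rose and 1 fell in 1C. Rnf139, a ubiquitin ligase of the endoplasmic reticulum, had 70.0, 67.2 and 71.4 CPM in 1A HMGB1 libraries, against 26.4, 28.1 and 29.9 CPM in 1A Control libraries (log2 fold change 1.28 ± 0.07, adjusted p = 2.4e-09). Nr1h3, the oxysterol receptor LXR alpha, rose in 1A (0.80 ± 0.13), in 1B (1.45 ± 0.15) and in Protocol 2 (0.87 ± 0.10, adjusted p = 5.0e-04), the 1 gene of this list that passed there.

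Among 8 genes of sterol esterification and oxysterols, of which 6 were tested in 1A, 1 rose and 3 fell. The riser, named after its values were seen, was Ch25h, which makes 25-hydroxycholesterol, a sterol known to hold back SREBF activation. It had 302, 436 and 453 CPM in 1A HMGB1 libraries, against 4.94, 6.97 and 13.5 CPM in 1A Control libraries (log2 fold change 5.55 ± 0.48). In Protocol 2 it had 18.4, 20.4 and 19.5 CPM with HMGB1, against 7.35, 9.76 and 7.96 CPM in Control (log2 fold change 1.21 ± 0.12, adjusted p = 1.5e-04). Neither pair overlapped, whereas Protocol 3 libraries overlapped, with 8.97, 12.7 and 7.83 CPM with HMGB1, against 10.1, 10.9 and 9.06 CPM in Control. The fallers in 1A were Soat1, which esterifies cholesterol (-1.02 ± 0.07), Nceh1, an ester hydrolase (-1.08 ± 0.08), and Cyp27a1, a sterol hydroxylase (-1.12 ± 0.12).

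In a list of 16 genes of fatty acid elongation, activation and supply, 6 of 15 tested rose and 5 fell in 1A. Their log2 fold changes in 1A ran from -1.49 to 3.97, and the largest rise was not that of Acsl5, Acsl4 or Hsd17b12. The list summed to 2578 to 2693 CPM in 1A HMGB1 libraries, against 991 to 1054 CPM in 1A Control libraries. Acyl-CoA synthases Acsl5 and Acsl4 rose (1.56 ± 0.07 and 1.28 ± 0.07), as did Hsd17b12, an elongation reductase (1.01 ± 0.06). Acsl1 was the 1 gene of this list called in Protocol 2 (log2 fold change 0.65 ± 0.06, adjusted p = 1.2e-04), where it had 105, 95.4 and 103 CPM with HMGB1, against 60.2, 67.0 and 65.4 CPM in Control, without overlap. Of 9 isoprenoid branch genes, which make ubiquinone, dolichol and protein prenyl groups, 4 rose and 1 fell in 1A, and the 3 with the smallest adjusted p were Nus1 (0.48 ± 0.07), Pggt1b (0.56 ± 0.09) and Ggps1 (0.57 ± 0.11). No gene of the 4 lists passed in Protocol 3.

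Across all 10 groups, 1A held the highest mean for 30 of the 34 members, 15 in its Control and 15 in its HMGB1 group. Protocol 3 held the lowest mean for 26, with 18 in its HMGB1 and 8 in its Control group. The exceptions at the top were Insig2 and Me1, highest in 1B HMGB1, Acaca, highest in 1C Control, and Scap, highest in Protocol 2 HMGB1. Per kilobase, mean levels in 1A Controls ran highest for Acly (90.8 ± 3.51, SD, n = 3), Insig1 (76.0 ± 4.07) and Scd2 (74.7 ± 4.19). Acly and Insig1 differed by more than their SD, whereas Insig1 and Scd2 overlapped. In Protocol 3 Controls, Acly (28.7 ± 1.24) and Srebf2 (26.7 ± 0.970) were highest and overlapped.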

How the data were processed

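The deposited table held raw counts of reads per gene for all 30 libraries. Per the submitters' processing notes the authors' alignment used HISAT2 2.0.5 and their gene counting featureCounts 1.5.0-p3, while the genome build and the strand setting are not given in the sources used here. The deposited gene length (another column, in bases) was used for levels per kilobase. Gene starts and ends matched GENCODE M21 on GRCm38 for 98.3% of 54409 shared identifiers, and for 29 of the 34 members. Counts came from libraries of 14151983 to 28564757 reads assigned to genes.

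The counts were tested in R 4.3.3 with edgeR 4.0.16 (TMM scaling, filterByExpr, robust quasi-likelihood F test, limma 3.58.1) and Benjamini-Hochberg adjustment over all genes tested. A gene was called at an adjusted p under 0.05 with no minimum fold. HMGB1 responses were fitted in the 6 libraries of a protocol, Controls in 15 libraries, and response differences in 30, where Protocol 1 stands for the average over its 3 variants. The standard error is the size of the log2 fold change over the square root of F. Alternatives were DESeq2 1.42.0, DESeq2 size factors, no filter on low counts, a minimum log2 fold change of 1, a replicate block, other sets of libraries, Protocol 1A alone as Protocol 1, and each library left out in turn. No libraries were identical.

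Members and lists were chosen with earlier results of these data known. Values by library are given for up to 3 members of each role with the largest change among those called without overlap, in 1A and in the Control comparisons. They are given in part for the SREBF, INSIG and SCD pairs. For the pooled Protocol 1 Controls, the lowest, the median and the highest of 9 libraries, or their range, stand in place of single values. Pmvk in Protocol 2 against 3 is given without library values. Of the neighbour lists, up to 3 genes with the smallest adjusted p are named, and 1 that the rule would name is not reported here. The replicate numbers were checked by correlating deviations from the group means. Same-numbered libraries correlated at 0.131 to 0.517 in Protocols 1B, 1C, 2 and 3 and are taken as paired there. In 1A the values were 0.0998, 0.07 and 0.132, partly below that range. Each 1A library was also closest to its own number, as in the other protocols, so pairing in 1A is uncertain. The main tests leave the pairing out in every protocol, and the block enters only as an alternative. Sequences are from RefSeq (GRCm38.p6).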

Additional observations from a re-analysis of the deposited data

Results flagged for a closer look

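The HMGB1 response of 9 of the 34 members was higher, and that of 4 was lower, in Protocol 2 than in Protocol 1. This was the test of the difference in one fit of all libraries, where 22.9% of all 18182 genes tested were higher and 20.6% were lower. The 9 were Mvk, Tm7sf2, Dhcr7, Srebf1, Scap, Fasn, Elovl6, Scd2 and Fads1, and the 4 were Pmvk, Srebf2, Acss2 and Me1. In Protocol 3 the response of 4 members (Dhcr7, Fasn, Scd2 and Fads1) was higher, and that of 3 (Pmvk, Srebf2 and Me1) was lower, than in Protocol 1. The shares of all genes were 20.2% higher and 22.5% lower, above those of the members. Among the neonatal variants, the response of 1 member, Scap, was higher in 1B than in 1A, beside 3.7% of all genes. The response of 1 member, again Scap, was higher in 1C than in 1A, and that of 8 was lower, beside 5.46% and 8.53% of all genes. The differences against Protocol 1 share its libraries, and those against 1A share the 1A libraries.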

How the results depend on the processing

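Counts of members called are given as higher and lower. With a minimum log2 fold change of 1 they were 1 and 1 in 1A, 1 and 4 in 1B and 0 and 8 in 1C. At that minimum the Control comparisons gave 0 lower in Protocol 1 against 2, 0 and 3 in 1B against 1A, and 15 lower in 1C against 1A. The response differences gave 4 and 0 for Protocol 2, 1 lower for Protocol 3, 0 higher for 1B and 0 and 1 for 1C. DESeq2 size factors gave 2 lower in Protocol 1 against 3, and DESeq2's own test gave 1 lower for the 1B response difference. Without the filter on low counts, the response differences gave 14 higher for Protocol 2, 7 higher for Protocol 3, 2 lower for 1B, and 0 and 14 for 1C. One fit of all 30 libraries gave 7 higher in 1A and 4 higher in 1B. The cause of these changes was not tested.

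With the replicate number as a block, 4 members were higher in 1C, beside 4307 of all 14328 genes tested. The block gave 14 higher in the response difference of Protocol 2, 8 and 5 in that of Protocol 3, 3 lower in that of 1B and 20 lower in that of 1C, fits that hold 1A as well. Over all 18182 genes it gave 4535 higher for Protocol 2, 3865 and 4399 for Protocol 3, 978 lower for 1B and 2110 lower for 1C. In the Controls, the block gave 1 lower in Protocol 1 against 2 and 2 higher in 1B against 1A. No source used here says that equal numbers of different protocols or variants share animals. The 2 Control counts stand beside 5178 and 2995 of all 17033 genes. In 1A, where every library was closest to its own number, the block left the counts at 11 and 12, with Scd1 gained (adjusted p = 0.022) and Acss2 lost (adjusted p = 0.064). All other counts stayed within 1.5 times under the block.

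Leaving out 1 library at a time gave 9 to 11 higher and 9 to 15 lower in 1A, 6 to 9 and 8 to 13 in 1B, and 1 to 2 and 13 to 17 in 1C. Both counts stayed at 0 in Protocols 2 and 3. For Controls it gave 32 and 1 (Protocol 1 against 3), 18 to 21 and 5 to 6 (2 against 3), 29 to 30 and 1 to 3 (1 against 2), 1 to 2 and 17 to 21 (1B against 1A) and 0 and 27 to 30 (1C against 1A). Response differences gave 7 to 12 and 2 to 7 for Protocol 2, 4 to 5 and 2 to 3 for Protocol 3, 1 and 0 to 1 for 1B, and 0 to 1 and 5 to 9 for 1C. With these settings no call changed sign. Of the calls on single members, 29 of 33 held under every setting in Protocol 1 against 3, 25 of 32 in Protocol 1 against 2, 17 of 24 in Protocol 2 against 3 and 15 of 31 in 1C against 1A. The numbers were 3 of 23 in 1B against 1A, and for HMGB1 2 of 23 in 1A, 5 of 18 in 1B and 7 of 18 in 1C, the minimum fold included.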
